A study of Mus musculus with 17 samples.

Results

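Spleens of mice given either of 2 stem-loop RNAs, SLR10 or SLR14, were set against spleens of mice given poly(I:C). The comparison was chosen by group label and takes in 9 of the 17 libraries of the series: 3 with SLR10, 3 with SLR14, pooled to 6, and 3 with poly(I:C). The other groups, pppNS (3 libraries), vehicle (2) and naive mice (3), entered no test here, and the vehicle and naive levels are given as background. All mice are labelled CB57BL/6NCrl, with no other allele, and age, sex and the time between injection and collection are not given in the sources used here. The treatment text, which stands unaltered with each library, describes stem-loop RNA bound to the polyethylenimine carrier in vivo-jetPEI at an N/P ratio of 8 and injected into a vein as 25 µg of RNA in 200 µl. No separate dose or route is given for poly(I:C), so the doses cannot be taken as matched, and the vehicle is described as jetPEI. RNA came from whole spleen, where fewer cells of a type and less RNA per cell cannot be told apart. It is not stated that each library came from another mouse, and p-values measure only the spread between these samples, which may be technical.

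SLR10 and SLR14 are short RNA hairpins with a 5′ triphosphate, named for the number of base pairs in the stem, and the series title calls the ligand studied a minimal RIG-I ligand. RIG-I, encoded by Ddx58, is a cytosolic receptor that binds the triphosphate end of double-stranded RNA and signals through the mitochondrial adaptor MAVS to the transcription factors IRF3, IRF7 and NF-kB, which switch on the type I interferon genes Ifnb1 and the Ifna family. Poly(I:C) stands for double-stranded RNA made in the laboratory, of mixed length and with no single receptor: it is bound by TLR3 in endosomes and by the cytosolic receptor MDA5, encoded by Ifih1, and short forms are bound by RIG-I. Secreted interferons of type I (alpha, beta) and type III (lambda) act through different receptors but switch on much the same set of interferon-stimulated genes. In the spleen, plasmacytoid dendritic cells are known for making large amounts of type I interferon.

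Expression is given in the authors' CPM, reads scaled by a normalized edgeR library size, so the columns do not share 1 total. Column totals were 1.06e+06 to 1.28e+06 in the 9 libraries, 696315 and 696096 with vehicle, and 726635 to 748327 in naive mice. Levels set against vehicle or naive libraries therefore depend on this scaling, and scaling to equal totals would raise vehicle and naive levels relative to the 9 libraries. The 9 libraries held 26.5 to 40.1 M reads, so that 1 read was worth 0.0282 to 0.0431 CPM and 3 reads, the floor under which a level was not told from 0, 0.0847 to 0.129 CPM. Of the 38340 named genes, 13250 reached 1 CPM in at least 2 of the 9 libraries and were tested with limma on log2(CPM + 0.5), with Benjamini-Hochberg adjustment over all of them. A gene is said to have changed where its adjusted p was under 0.05. A rise or fall is that of the stem-loop RNAs from poly(I:C), not from vehicle. By that rule 841 genes (6.35%) differed between the 6 stem-loop libraries and the 3 poly(I:C) libraries: 448 (3.38%) were higher and 393 (2.97%) lower with the stem-loop RNAs, 68 and 56 of them by at least 2-fold. The count rested on single libraries: it was 116, 151 and 192 without SLR10 replicate 3, 1 or 2, 199 and 303 without poly(I:C) replicate 3 or 2, 258 and 492 without SLR14 replicate 1 or 3, and 1483 without SLR14 replicate 2. Of the 841, 21 reached 1 CPM in no stem-loop library and 24 in no poly(I:C) library, so they entered the test through 1 side only. The median log2 difference over all tested genes was -0.02. The shares of 3.38% higher and 2.97% lower are the background for each list count below. Groups that do not overlap were found for 1922 genes (14.5%), in 1048 (7.91%) with all stem-loop libraries higher and in 874 (6.6%) with all of them lower.

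SLR14 replicate 2 and poly(I:C) replicates 2 and 3 stood apart from the other 6 libraries along the leading principal component, which carried 74.4% of the variance. The next component carried 11.4% and placed the 6 stem-loop libraries, at -0.53 to 25.02, above the 3 poly(I:C) libraries, at -34.18 to -10.57. The same 3 libraries held the most erythroid transcripts. The mean log2 level of 24 erythroid markers was 8.94 in SLR14 replicate 2 and 4.46 to 4.89 in the other 5 stem-loop libraries, and it was 3.57, 9.51 and 8.35 in poly(I:C) replicates 1, 2 and 3. Proliferating cell markers, 36 genes, ran the same way: 6.41 in SLR14 replicate 2, 3.75 to 3.97 in the other 5, and 3.62, 6.92 and 5.78 with poly(I:C). In vehicle spleens the erythroid level was 4.65 and 5.39. None of the 24 erythroid or 36 proliferating markers passed with limma, edgeR or DESeq2, and 0 of either list had an unadjusted limma p under 0.05. Their median log2 differences were -1.76 and -1.19. Without the 3 libraries the medians turned to 1.34 and 0.25, with 15 of the 24 erythroid and 9 of the 36 proliferating markers called higher and 0 and 1 lower. That fit called 2302 genes, and it sets 5 stem-loop libraries against poly(I:C) replicate 1 alone, which is assumed to vary like the other groups. A fit with the erythroid level as a covariate called 2526 genes and is given among the other settings. What part these markers have in the differences below was not tested.

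**Figure D1:**
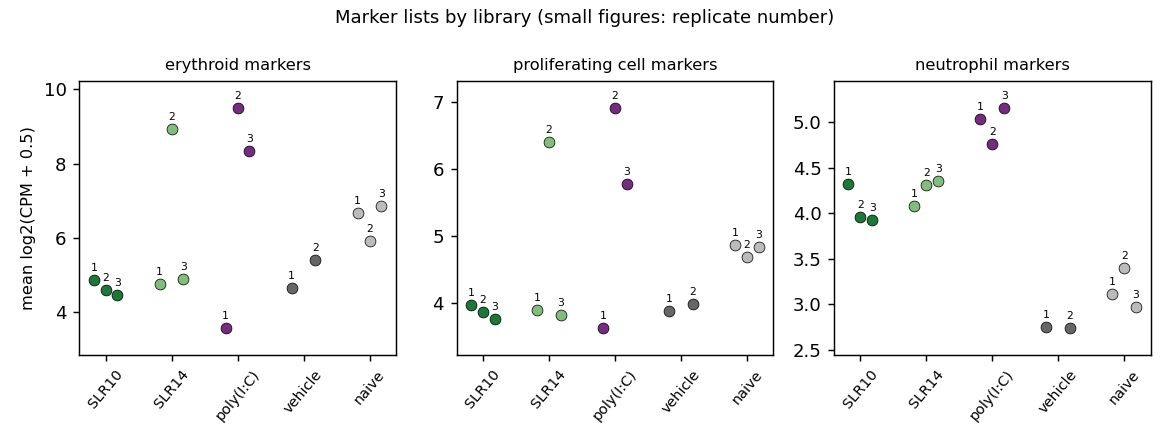
Mean log2(CPM + 0.5) of the erythroid, proliferating cell and neutrophil marker lists (y axis) in each library of 5 groups (x axis), 1 point per library with its replicate number. SLR14 replicate 2 and poly(I:C) replicates 2 and 3 are high in the erythroid and proliferating lists, while the 3 poly(I:C) libraries lie above all 6 stem-loop libraries in the neutrophil list.

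Type I interferon transcripts were higher with the stem-loop RNAs than with poly(I:C). All 11 type I genes that could be tested, Ifnb1 and 10 Ifna genes, were higher with the stem-loop RNAs, by 1.57 to 2.60 on the log2 scale, and in each of them the 6 stem-loop libraries lay above the 3 poly(I:C) libraries. The 2 tested interferon lambda genes, Ifnl2 and Ifnl3, went the other way, and Ifng, the type II interferon, did not pass the test. Over the 14 interferon genes tested, 11 rose, 2 fell (1 of them, Ifnl3, tested only through its poly(I:C) level) and the median log2 difference was 1.90, against -0.02 over all genes. Without the 3 erythroid-high libraries the counts were again 11 and 2, with a median of 1.34. Of the 21 genes on the interferon list, Ifna6, Ifna7, Ifna11 and Ifnab were not matched by name, and Ifne, Ifnk and Ifnz were under the filter.

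Ifnb1 (chr4:88522025-88522774 on the minus strand, GRCm38) encodes interferon beta, usually the type I gene that is switched on earliest. It stood at 250, 158 and 242 CPM with SLR10, at 236, 170 and 241 CPM with SLR14, and at 76.9, 45.6 and 55.1 CPM with poly(I:C). The lowest stem-loop library was thus well above the highest poly(I:C) library, and the SLR10 and SLR14 libraries covered the same range. The difference was 1.87 ± 0.21 (SE) on the log2 scale, or 3.65-fold between the group means, with a limma adjusted p of 0.00602. Both vehicle libraries were at or under 0.0596 CPM, which is 3 reads, so that poly(I:C) was itself far above background. Each of the 9 fits that left out 1 library kept the call, with differences of 1.70 to 2.07. The difference was 1.54 without the 3 erythroid-high libraries, and 1.75 between SLR14 replicate 2 and poly(I:C) replicates 2 and 3.

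Ifna13 (chr4:88643641-88644459, minus strand) had the largest difference of the alpha genes. Its level was 12.7, 7.72 and 11.3 CPM with SLR10, 9.95, 9.33 and 5.69 CPM with SLR14, and 1.13, 1.01 and 1.15 CPM with poly(I:C). The poly(I:C) libraries were nearly equal to each other and none came near the stem-loop range, a difference of 2.60 ± 0.21 (limma adjusted p = 0.00183). Ifna15 (chr4:88557673-88558245, minus strand) was at 57.8, 32.2 and 53.8 CPM with SLR10, 53.1, 43.4 and 41.4 CPM with SLR14, and 12.8, 8.12 and 8.84 CPM with poly(I:C), a difference of 2.19 ± 0.22 (limma adjusted p = 0.00315). Ifna5 ran from 84.7 to 144 CPM (median 120) over the 6 stem-loop libraries and from 17.8 to 40.6 CPM with poly(I:C), 2.14 ± 0.26 higher on the log2 scale. Ifna2 was at 92.7 to 146 CPM (median 137) against 55.8, 26.2 and 37.2 CPM, a difference of 1.70 ± 0.24 (limma adjusted p = 0.0125). In none of these 5 genes did a stem-loop library fall into the poly(I:C) range.

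The other alpha genes, Ifna1, Ifna4, Ifna9, Ifna12, Ifna14 and Ifna16, were higher by 1.57 to 1.97 on the log2 scale. Vehicle libraries held at most 0.0199 CPM of them (Ifna16), and naive libraries at most 0.07 CPM (Ifna4). Ifna16 passed in 7 of the 9 fits with a library left out, missing without SLR10 replicate 3 and without poly(I:C) replicate 3 (limma adjusted p = 0.0578), and Ifna2 in 8 (0.0509 without poly(I:C) replicate 3). Over the whole list the number of interferon genes called higher was 8 without poly(I:C) replicate 3 and 9 to 11 without any other library. Genes of the alpha family are close copies of each other: the coding sequence of each of the 10 is 87.7% to 94.6% identical to its nearest relative, so reads may have been shared or lost between them in counting, and the split between single Ifna genes is uncertain.

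Because the type I genes moved together, the sequence before 3 of them is shown, from RefSeq on GRCm38.p6, 180 bases on the gene's strand that end 70 bases before the RefSeq transcript start. Capitals mark each match to AANNGAAA, the core of the element that IRF factors bind, and in Ifnb1 also the match to GGAAATTCC, an NF-kB type sequence. The windows are Ifnb1 at chr4:88522865-88523044, Ifna13 at chr4:88644530-88644709 and Ifna15 at chr4:88558316-88558495, all on the minus strand.
Ifnb1: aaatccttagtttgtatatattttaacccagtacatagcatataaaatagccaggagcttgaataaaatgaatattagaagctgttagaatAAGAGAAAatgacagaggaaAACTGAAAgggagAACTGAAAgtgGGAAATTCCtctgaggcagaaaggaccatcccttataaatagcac
Ifna13: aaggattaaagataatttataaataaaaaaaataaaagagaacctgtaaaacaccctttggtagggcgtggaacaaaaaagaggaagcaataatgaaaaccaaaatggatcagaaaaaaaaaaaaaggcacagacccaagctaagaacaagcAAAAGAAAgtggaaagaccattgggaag
Ifna15: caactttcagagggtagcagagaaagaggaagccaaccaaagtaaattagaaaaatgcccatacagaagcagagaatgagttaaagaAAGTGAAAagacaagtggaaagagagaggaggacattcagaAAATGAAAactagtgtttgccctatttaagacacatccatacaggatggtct

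Ifnb1 holds 3 matches to AANNGAAA within a short stretch and the NF-kB type sequence directly after them, while Ifna15 holds 2 matches, Ifna13 1, and neither alpha window has the NF-kB type sequence. Counted over the 250 bases before the start and on both strands, AANNGAAA was found in all 11 type I genes, against 21.3% of 32851 RefSeq promoters. GGAAATTCC was found in Ifnb1 alone of the 11, against 0.286%. These 2 motifs were chosen after the sequences were seen, and AANNGAAA partly overlaps the longer GAAANNGAA, which was found in 8 of the 11 genes and 7.13% of all promoters. TTCNNNGAA, the STAT type sequence, was in 5 of the 11 (7.02% of all), and GGGNNTTCC in 1 (4.98% of all). A match is a description of the letters only.

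Interferon lambda transcripts were higher with poly(I:C). Ifnl2 (chr7:28508836-28510455, minus strand) was at 1.54, 1.398 and 2.23 CPM with SLR10, at 0.957, 0.476 and 0.474 CPM with SLR14, and at 9.94, 6.86 and 8.46 CPM with poly(I:C). Every poly(I:C) library was above every stem-loop library, and the difference was -2.50 ± 0.20 on the log2 scale (limma adjusted p = 0.00183). Ifnl3 (chr7:28522836-28524322, plus strand) was at 0.127 to 0.720 CPM (median 0.322) over the 6 stem-loop libraries and at 7.09, 3.41 and 4.96 CPM with poly(I:C), a difference of -2.67 ± 0.25 (limma adjusted p = 0.003). Ifnl3 reached 1 CPM in no stem-loop library and so entered the test only through poly(I:C), where it was high; its call is given as a description. As the added 0.5 CPM draws low levels together, the ratio of the group means is larger, 13.3-fold for Ifnl3 and 7.13-fold for Ifnl2. Vehicle and naive libraries held no read of either gene.

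These low levels rest on few reads: 11 to 62 reads of Ifnl2 and 4 to 20 of Ifnl3 in a stem-loop library, against 211 to 352 and 105 to 251 with poly(I:C). The coding sequences of Ifnl2 and Ifnl3 are 97.1% identical, so the split between the pair is uncertain and their sum is the safer measure. For each 100 reads of Ifnb1 there were 0.881, 1.05 and 1.22 reads of the lambda pair with SLR10, 0.569, 0.355 and 0.269 with SLR14, and 22.1, 22.5 and 24.3 with poly(I:C). That the ratio was higher in every poly(I:C) library follows from the opposite differences of Ifnb1 and the lambda genes given above. Among the 3 poly(I:C) libraries the ratio hardly varied although their Ifnb1 levels did. Ifnl2 kept its call in all 9 fits with a library left out. Without the 3 erythroid-high libraries the differences of Ifnl2 and Ifnl3 were -2.69 and -3.09.

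Ifng, made mainly by NK and T cells, was at 137, 162 and 189 CPM with SLR10, 207, 59.7 and 313 CPM with SLR14 and 256, 90.2 and 155 CPM with poly(I:C). The groups overlapped widely, and the difference of 0.06 had a 95% interval from -1.11 to 1.22 (limma adjusted p = 0.955). The lowest values of SLR14 and of poly(I:C) were those of replicate 2, both erythroid-high libraries.

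**Figure D2:**
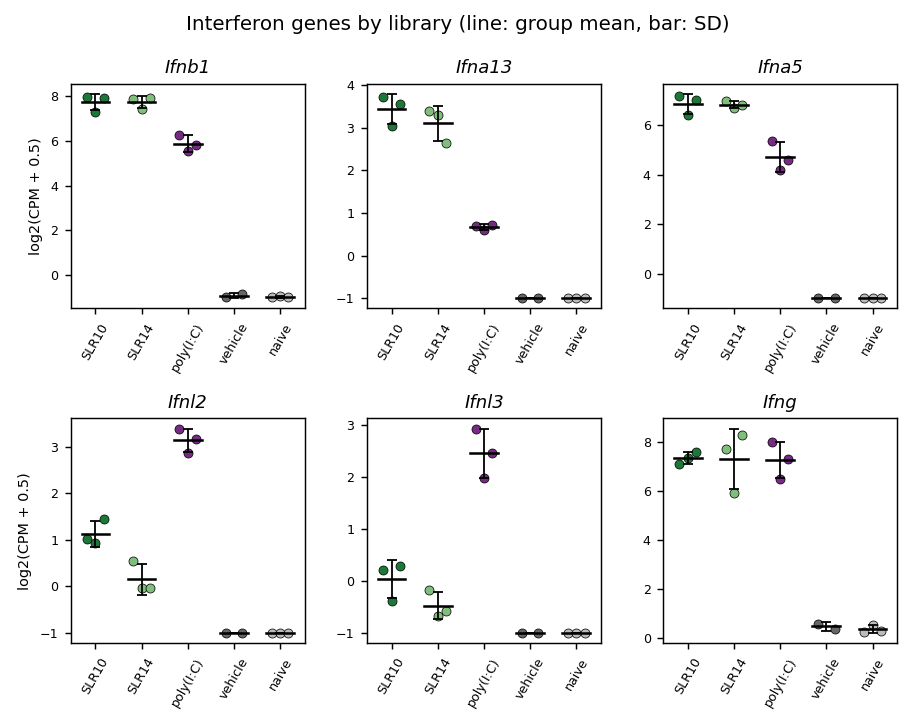
Levels of 6 interferon genes as log2(CPM + 0.5) (y axis) in each library of 5 groups (x axis), with 1 point per library, a line at the group mean and a bar for the SD. The 6 stem-loop libraries lie above the 3 poly(I:C) libraries for Ifnb1, Ifna13 and Ifna5 and below them for Ifnl2 and Ifnl3, and the groups overlap for Ifng.

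Markers of plasmacytoid dendritic cells did not move as a block. Of 8 tested markers 2 were higher, Bst2 and Ly6d, and 1 was lower, Tcf4 (3.38% and 2.97% of all genes were). The median log2 difference was 0.21. Bst2 held in 9, Ly6d in 2 and Tcf4 in 3 of the 9 fits with a library left out, and with all 17 libraries in the model none of the 3 passed (limma adjusted p = 0.274, 0.22 and 0.12). Siglech, the surface receptor that defines the cell in mice, was at 7.63 to 9.91 CPM (median 8.26) with the stem-loop RNAs, at 8.95, 6.82 and 9.26 CPM with poly(I:C) and at 13.7 and 15.2 CPM with vehicle, and its difference of 0.03 did not pass (limma adjusted p = 0.906). The summed level of the 8 markers was 655 to 766 CPM against 527 to 585 CPM, most of it from Bst2, which is also an interferon-stimulated gene. Sct, secretin, a peptide hormone whose transcript also marks these cells in mice, was at 7.95 to 10.5 CPM (median 8.87) with the stem-loop RNAs and at 1.81, 1.69 and 2.38 CPM with poly(I:C), against 0.219 to 0.421 CPM with vehicle. Its groups were far apart, at 1.95 ± 0.13 on the log2 scale (limma adjusted p = 0.00183), and the call held in all 9 fits with a library left out.

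Interferon-stimulated genes were far above vehicle with both kinds of RNA, and most did not differ detectably between them. Of 60 such genes, 2 rose (Bst2, Oas2), 5 fell (Ifih1, Ifit1, Trim25, Eif2ak2, Oasl1) and 53 did not pass, with a median log2 difference of -0.05. Over all genes 3.38% rose and 2.97% fell. Their mean log2 level was 9.08 to 9.36 in the stem-loop libraries, 9.14 to 9.27 with poly(I:C) and 5.38 to 5.41 with vehicle, so that the groups overlapped and both were far above vehicle. Counts on this list were not stable: with all 17 libraries in the model 0 of the 60 passed. Fits with a library left out called 1 to 4 of them higher. They called 8 lower without SLR14 replicate 2, 2 lower without poly(I:C) replicate 1 and 0 lower without each of the other 7. Without the 3 erythroid-high libraries 8 were called higher and 16 lower, with a median of -0.05.

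Mx1, a GTPase that blocks virus replication, was at 1229 to 1603 CPM (median 1511) with the stem-loop RNAs, at 1784, 1246 and 1356 CPM with poly(I:C) and at 30.2 and 34.4 CPM with vehicle. The difference of 0.03 had a 95% interval of -0.27 to 0.33, which leaves out a change of 2-fold. Isg15, a ubiquitin-like modifier, was at 876 to 2010 CPM (median 952) against 785, 1777 and 1294 CPM, and Rsad2, viperin, at 1445 to 5589 CPM (median 1552) against 2433, 5286 and 3796 CPM. In both genes the highest stem-loop value was that of SLR14 replicate 2, and neither difference, -0.18 and -0.91, passed, though the interval for Rsad2, -1.83 to 0.01, takes in large falls. Cxcl10, the interferon-induced T cell chemokine, was at 2736 to 3589 CPM (median 2922) against 3461, 2149 and 3021 CPM, a difference of 0.09 (-0.27 to 0.45).

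Ifih1, which encodes MDA5, was lower with the stem-loop RNAs: 684, 671 and 632 CPM with SLR10 and 682, 998 and 665 CPM with SLR14, against 1188, 1159 and 1046 CPM with poly(I:C). The groups did not overlap, with SLR14 replicate 2 the closest to poly(I:C), and the difference was -0.66 ± 0.13 (limma adjusted p = 0.0302). Ifit1, which binds triphosphate RNA ends, was at 989 to 1562 CPM (median 1027) against 1791, 1603 and 1597 CPM, a difference of -0.57 ± 0.13 (limma adjusted p = 0.0401). Both calls were lost in 8 of the 9 fits with a library left out, all but the fit without SLR14 replicate 2, with adjusted p up to 0.088 for Ifih1 and 0.106 for Ifit1. Between the 3 erythroid-high libraries the differences were -0.14 and -0.04. Ddx58, the gene of RIG-I itself, was at 693 to 832 CPM (median 713) against 936, 800 and 784 CPM, which overlap, and did not pass (-0.19, limma adjusted p = 0.213).

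Among 24 genes of RNA sensing and IRF activation, 2 rose (Ticam1, Traf3), 5 fell (Zc3hav1, Mb21d1, Ifih1, Trim25, Eif2ak2) and 17 did not pass. Over all genes 3.38% rose and 2.97% fell. The list median was -0.05. Ticam1, the TRIF adaptor of TLR3, was at 11.3 to 16.9 CPM (median 15.6) with the stem-loop RNAs, at 9.51, 8.29 and 9.88 CPM with poly(I:C) and at 12.9 and 13.5 CPM with vehicle. In the authors' scaling it is poly(I:C) that lay below the vehicle here, while the stem-loop range took in the vehicle values. Mb21d1, the DNA sensor cGAS, was at 49.8 to 58.3 CPM (median 51.7) against 106, 78.4 and 72.6 CPM, and Zc3hav1, the antiviral protein ZAP, at 441 to 540 CPM (median 454) against 655, 737 and 597 CPM. These 3 calls held in 3, 5 and 4 of the 9 fits with a library left out, and with SLR10 replicate 3 left out the adjusted p was 0.0875, 0.0721 and 0.0733. Without SLR14 replicate 1 or any SLR10 replicate 0 of the 24 passed, and without the 3 erythroid-high libraries 5 were higher and 10 lower. Of 24 interferon receptor, STAT and SOCS genes, only the feedback inhibitors Cish (-0.74) and Socs1 (-0.51) passed, both lower, and Socs1 kept its call in none of the 9 such fits.

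Most heat shock chaperones, which refold damaged proteins, also rose with the stem-loop RNAs. Of 12 tested, 8 were higher (3.38% of all genes were), none lower, and the median log2 difference was 0.70. Hspa1a (chr17:34969190-34972156, minus strand), the stress-induced HSP70, showed the largest rise of all named genes. It was at 17.3, 11.6 and 36.0 CPM with SLR10, at 22.6, 14.2 and 26.5 CPM with SLR14, at 3.25, 1.56 and 2.81 CPM with poly(I:C), and at 0.842 and 0.794 CPM with vehicle. The stem-loop libraries varied more than 3-fold among themselves but all lay above poly(I:C), which lay above vehicle, and the difference was 2.79 ± 0.36 (limma adjusted p = 0.00939). Hspa1b (chr17:34956436-34959238, minus strand) was at 15.6 to 56.2 CPM (median 29.9) against 8.33, 3.90 and 6.73 CPM, 2.15 ± 0.40 higher (limma adjusted p = 0.0244). The coding sequences of Hspa1a and Hspa1b are 99.4% identical, so how reads were split between the pair is uncertain.

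The 180 bases before the RefSeq start of Hspa1a (chr17:34972157-34972336, minus strand, GRCm38.p6) are shown because heat shock factor binds inverted repeats of GAA, and capitals mark the match to GAANNTTC.
Hspa1a: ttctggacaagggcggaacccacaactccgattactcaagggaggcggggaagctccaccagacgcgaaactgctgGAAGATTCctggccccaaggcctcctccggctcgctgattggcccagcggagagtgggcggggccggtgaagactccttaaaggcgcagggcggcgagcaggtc

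GAANNTTC, also chosen after the sequences were seen, was found in 5 of the 6 higher chaperone genes that have a RefSeq entry. It was in 6.69% of all promoters. The units differ: a gene counted if any of its starts had a match, and Hspd1 and Dnaja1 have starts without one. The share counts each promoter singly. The 5 genes do not give 5 separate sequences, since the windows of Hspa1a and Hspa1b are near copies and those of Hspd1 and Hspe1 overlap. The same motif was in 4 of the 11 type I interferon genes. None of the 6 held AANNGAAA, GAAANNGAA or TTCNNNGAA, and 3 held GGGNNTTCC. Hsph1, a nucleotide exchange factor for HSP70, was at 97.1 to 195 CPM (median 138) against 64.2, 48.1 and 48.1 CPM, with vehicle at 31.4 CPM in both libraries. Of the constitutive chaperones, Hspa8 was at 1477 to 2030 CPM (median 1649) against 1120, 832 and 918 CPM, and Hsp90ab1 at 1377 to 2000 CPM (median 1573) against 1030, 897 and 934 CPM. Their differences were 1.37 ± 0.23, 0.84 ± 0.13 and 0.77 ± 0.12, with limma adjusted p of 0.0187, 0.0163 and 0.0163, and all 3 sat above poly(I:C) with no overlap, and poly(I:C) above vehicle. The mitochondrial pair Hspd1 (0.61) and Hspe1 (0.75) and the co-chaperone Dnaja1 (0.64) also passed. Dnajb1 (0.39), Hsp90aa1 (0.45), Bag3 (-0.06) and Hspb1 (-0.45) did not.

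Only Hspa1a held in all 9 fits with a library left out. The number of the 12 called higher was 1 without SLR10 replicate 1 and without poly(I:C) replicate 3, 2 without poly(I:C) replicate 2, 4 without SLR14 replicate 1 and 5 without SLR10 replicate 3, while the list median stayed between 0.62 and 0.77. It was 7 without the 3 erythroid-high libraries, with a median of 0.66. In the related list of 14 integrated stress and unfolded protein response genes, 2 rose and none fell. Ddit4, an inhibitor of mTORC1, was at 39.3, 42.6 and 36.4 CPM with SLR10, 29.7, 22.8 and 22.1 CPM with SLR14, 9.88, 8.67 and 12.03 CPM with poly(I:C), and 42.5 and 36.0 CPM with vehicle. In the authors' scaling SLR10 was thus near the vehicle, SLR14 below it, and poly(I:C) lowest. The difference between the stem-loop RNAs and poly(I:C) was 1.58 ± 0.13 (limma adjusted p = 0.00247). Herpud1, a part of endoplasmic reticulum protein disposal, was also lowest with poly(I:C), with 40.9 to 49.0 CPM (median 45.8) against 21.99, 26.1 and 25.6 CPM and a vehicle of 78.5 and 72.7 CPM (0.86 ± 0.09).

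**Figure D3:**
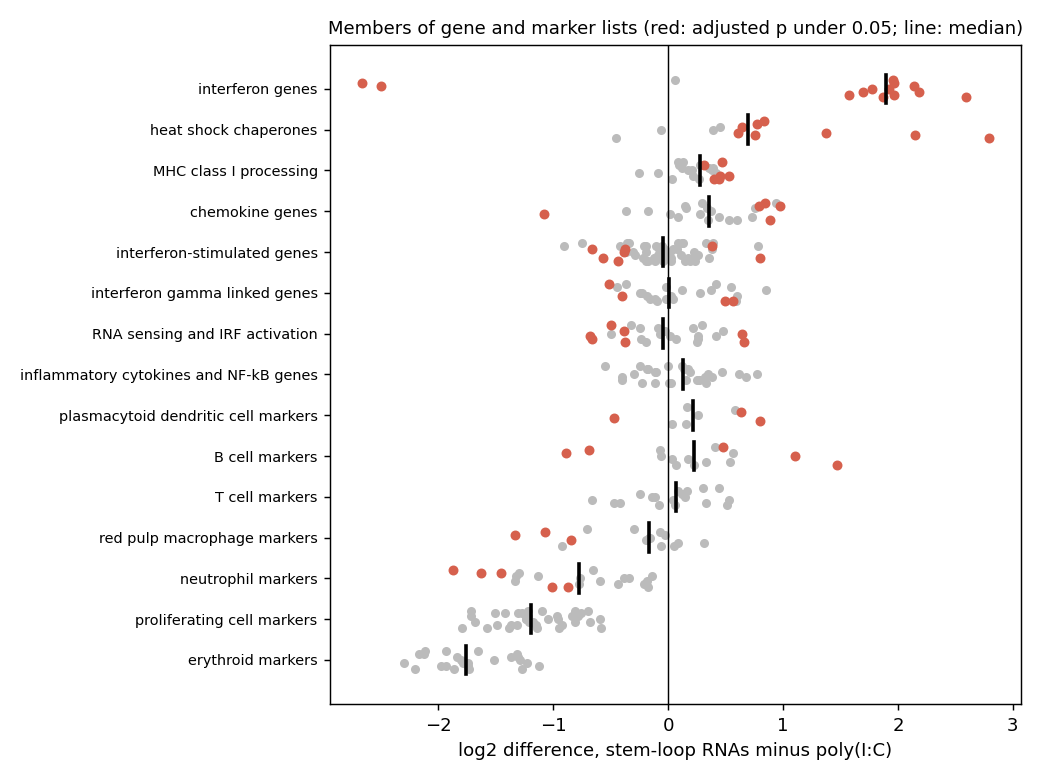
Log2 difference between the stem-loop RNAs and poly(I:C) (x axis) for each tested member of 15 gene and marker lists (y axis), 1 point per gene, red where the limma adjusted p was under 0.05, with a bar at the list median. Interferon genes (median 1.90) and heat shock chaperones (0.70) lie to the right, the 2 lambda genes at the far left, and neutrophil markers (-0.77) to the left, while proliferating and erythroid markers lie to the left with no member past the threshold.

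MHC class I shows peptides to CD8 T cells. Of 22 tested genes of antigen presentation by MHC class I, 6 were higher (Tap2, Pdia3, Psmb10, Psme1, Psme2, Psmb9) with the stem-loop RNAs, none were lower and 16 did not pass. Over all genes 3.38% were higher and 2.97% lower. The list median was 0.27. Tap2, a subunit of the peptide transporter, was at 307 to 345 CPM (median 325) with the stem-loop RNAs, 238, 220 and 256 CPM with poly(I:C) and 96.0 and 85.2 CPM with vehicle. Its partner Tap1 was at 807 to 864 CPM (median 834) against 838, 784 and 818 CPM, and did not pass (0.04). The count fell to none without any SLR10 replicate, to 1 or 2 without SLR14 replicate 1 or 3 or poly(I:C) replicate 2 or 3, and to none with all 17 libraries in the model. It was 8 without the 3 erythroid-high libraries.

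Chemokine genes gave 4 higher (Ccl2, Ccl8, Ccl12, Cxcl16) and 1 lower (Ccl22) of 22 (3.38% and 2.97% of all genes were), with a median of 0.36. Ccl2, which draws monocytes, was at 211, 204 and 226 CPM with SLR10, 250, 255 and 231 CPM with SLR14 and 151, 94.5 and 131 CPM with poly(I:C), a difference of 0.89 ± 0.14 (limma adjusted p = 0.016). No libraries overlapped, and the call was lost without SLR10 replicate 3 (0.0575) and with all 17 libraries in the model (0.118). Ccl12, a related monocyte chemokine, was at 14.4 to 19.9 CPM (median 15.98) against 8.04, 8.61 and 10.03 CPM (0.84 ± 0.11), and its call held in each of the 9 fits with a library left out but not with all 17 libraries in the model (0.343). Ccl8 entered the test only through the stem-loop libraries, as no poly(I:C) library reached 1 CPM. Ccl22, made by activated dendritic cells and drawing CCR4-bearing T cells, went against them: 11.7 to 17.5 CPM (median 13.7) against 43.9, 21.8 and 28.4 CPM, with vehicle at 4.18 and 6.02 CPM. The list count was 8 higher without poly(I:C) replicate 1, 2 without poly(I:C) replicate 3 and 1 without SLR10 replicate 3. Without the 3 erythroid-high libraries 5 were higher and 3 lower, and the median was 0.05. The Ccl22 difference of -1.08 ± 0.22 (limma adjusted p = 0.0299) held in 3 of 9 such fits, with an adjusted p up to 0.0855, without poly(I:C) replicate 3.

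No inflammatory cytokine or NF-kB gene of 30 passed in either direction in the main limma fit, and the median was 0.13. In that fit 6 had an unadjusted p under 0.05, while edgeR called 0 and DESeq2 1. Without the 3 erythroid-high libraries 1 was higher and 11 were lower, with a median of -0.22. Il6 was at 85.4 to 142 CPM (median 101) against 97.9, 42.6 and 51.4 CPM (0.77, limma adjusted p = 0.119). With the erythroid covariate Il6 passed as higher (0.48, limma adjusted p = 0.0285) and Irg1 as lower (-0.63, limma adjusted p = 0.0167). Tnf was at 121 to 165 CPM (median 154) against 154, 99.8 and 144 CPM (0.19, -0.15 to 0.54). In Il6 the groups overlapped through poly(I:C) replicate 1 alone, and in Tnf more widely. Among 24 genes linked to interferon gamma, Wars and Gbp2 rose, Irgm1 and Socs1 fell and the median was 0.01. Il12rb1, the receptor subunit through which IL-12 acts, was at 50.8 to 86.6 CPM (median 78.4) against 45.2, 30.9 and 39.7 CPM (0.95 ± 0.18, limma adjusted p = 0.0257), a call that held in 2 of the 9 fits with a library left out.

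Of 16 checkpoint and costimulatory genes, 4 were higher with the stem-loop RNAs than with poly(I:C): Tnfsf4, Icosl, Havcr2 and Pdcd1lg2. None were lower (3.38% of all genes were higher and 2.97% lower), and the median was -0.01. Havcr2 was below vehicle with both kinds of RNA. It had 853 reads in the 6 stem-loop libraries and 282 in the 3 poly(I:C) libraries, against 1665 in the 2 vehicle libraries. Tnfsf4, the OX40 ligand, was at 8.10, 5.48 and 7.67 CPM with SLR10, 10.2, 12.6 and 7.93 CPM with SLR14, 2.96, 1.46 and 2.58 CPM with poly(I:C), and 0.369 and 0.199 CPM with vehicle. Every stem-loop library was above every poly(I:C) library, by 1.69 ± 0.22 on the log2 scale (limma adjusted p = 0.00993), in all 9 fits with a library left out. The other 3 calls held in 2 of the 9 such fits each, and without the 3 erythroid-high libraries 4 of the list were higher and 4 lower. Among cell death genes, Ripk1, the kinase that relays TNF receptor and necroptosis signals, was at 63.9, 66.8 and 65.6 CPM with SLR10, 66.4, 80.0 and 72.0 CPM with SLR14, 138, 165 and 135 CPM with poly(I:C) and 18.3 and 19.7 CPM with vehicle. The 6 stem-loop libraries were tightly grouped and far below poly(I:C), at -1.07 ± 0.09 (limma adjusted p = 0.00247), a call that held in all 9 such fits but not with all 17 libraries in the model (0.215). Ripk3, the kinase that Ripk1 acts on in necroptosis, was slightly higher (0.41, limma adjusted p = 0.0426, held in 2 of 9).

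Neutrophil genes were lower with the stem-loop RNAs. Of 20 markers 5 fell (Mmp9, Mmp8, Cd177, Ly6g, S100a8; 2.97% of all genes fell) and none rose, all 20 differences were below 0 and the median was -0.77. The mean log2 level of the list was 3.93 to 4.35 in the stem-loop libraries, 4.76 to 5.16 with poly(I:C) and 2.73 to 2.75 with vehicle, and its summed level was 662 to 1228 CPM, 1126 to 1848 CPM and 228 to 233 CPM. By the mean level the 3 groups did not overlap, with the stem-loop RNAs between vehicle and poly(I:C). Mmp9, a gelatinase stored in neutrophil granules, was at 7.81, 6.32 and 5.33 CPM with SLR10, 5.62, 5.74 and 7.15 CPM with SLR14, 35.7, 19.7 and 20.3 CPM with poly(I:C), and 9.82 and 7.57 CPM with vehicle. In the authors' scaling it was therefore near or under the vehicle level with the stem-loop RNAs and above it with poly(I:C). The naive libraries, at 15.2, 20.8 and 11.1 CPM, took in poly(I:C) replicates 2 and 3. The difference was -1.87 ± 0.21 (limma adjusted p = 0.00591). Cd177, a neutrophil surface protein, was at 4.74 to 7.39 CPM (median 5.71) against 19.4, 12.5 and 19.4 CPM, with vehicle at 3.396 and 4.33 CPM (-1.46 ± 0.18, limma adjusted p = 0.0088). Mmp8, the neutrophil collagenase, was at 16.3 to 43.4 CPM (median 18.2) against 103, 50.4 and 56.8 CPM (-1.62 ± 0.35, limma adjusted p = 0.0343).

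Mmp9 and Cd177 held in all 9 fits with a library left out, Mmp8 in 2 and Ly6g in 1. The count for the list was 2 without poly(I:C) replicate 1 or 3, any SLR10 replicate or SLR14 replicate 1, and 3 without poly(I:C) replicate 2; without the 3 erythroid-high libraries 11 were called lower and 1 higher. Itgam, the integrin CD11b of neutrophils and monocytes, was at 7.60 to 16.1 CPM (median 9.76) against 33.4, 19.6 and 23.7 CPM, with vehicle at 18.9 and 23.9 CPM. Ccr1, a chemokine receptor of the same cells, was at 4.19 to 9.22 CPM (median 4.68) against 23.3, 11.2 and 12.3 CPM, with vehicle at 6.58 and 5.98 CPM. The differences were -1.21 ± 0.20 and -1.44 ± 0.27. Both genes were named by size under a rule that required groups without overlap, so the lack of overlap is no result. The limma adjusted p rose to 0.0639 without poly(I:C) replicate 3 for Itgam and to 0.0735 without SLR10 replicate 3 for Ccr1. Monocyte markers were mixed: Ly6c1 (0.83) and Ly6c2 (0.56) rose, Cx3cr1 (-0.67) fell, and the median over 13 was 0.15. These calls held in 5, 2 and 1 of the 9 fits with a library left out, and Cx3cr1 reached 1 CPM only in poly(I:C) libraries, so that it entered the test only through the group where it was high.

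Macrophages of the red pulp recycle iron from old red cells. Of their 15 markers 3 fell and none rose (2.97% and 3.38% of all genes did), with a median of -0.17. Mrc1, the mannose receptor, was at 14.4, 15.7 and 14.5 CPM with SLR10, 15.4, 23.7 and 18.4 CPM with SLR14, 30.9, 37.2 and 39.4 CPM with poly(I:C), and 48.4 and 63.3 CPM with vehicle. Poly(I:C) was below vehicle and the stem-loop RNAs lower still, at -1.07 ± 0.14 from poly(I:C) (limma adjusted p = 0.00971), which held in all 9 fits with a library left out. Cd163, the haemoglobin scavenger receptor (-1.33), and Slc40a1, the iron exporter ferroportin (-0.85), had the same order of groups, and their calls held in 4 and 2 of the 9. In the fit without the 3 erythroid-high libraries 5 of the 15 were lower. Spic, the transcription factor that defines these cells, did not pass (0.08). The list's mean level was 5.50 to 6.01 against 5.80 to 6.22, with vehicle at 6.41 and 6.68.

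B cell genes were mixed: Spib, Cd79b and Cd72 rose, Fcer2a and Ebf1 fell, and the median over 15 was 0.23. The counts were 3 and 4 without the 3 erythroid-high libraries, with a median of 0.02. Spib, a transcription factor of B cells and plasmacytoid dendritic cells, was at 200, 186 and 250 CPM with SLR10, 230, 185 and 170 CPM with SLR14, 76.8, 62.2 and 79.5 CPM with poly(I:C), and 243 and 226 CPM with vehicle. In the authors' scaling the stem-loop libraries were at or a little below vehicle, and poly(I:C) lay further below. Vehicle columns have smaller totals in that scaling, so their place here depends on it. The stem-loop RNAs differed from poly(I:C) by 1.47 ± 0.14 (limma adjusted p = 0.003). Cd79b, a part of the B cell receptor, was at 185 to 248 CPM (median 224) against 110, 93.1 and 105 CPM, with vehicle at 370 and 360 CPM (1.10 ± 0.11). Dtx1, a Notch-linked ubiquitin ligase, was at 58.3 to 90.0 CPM (median 77.7) against 27.6, 19.6 and 29.7 CPM, with vehicle at 94.5 and 73.3 CPM (1.53 ± 0.18, limma adjusted p = 0.00686). Fcer2a, the low-affinity IgE receptor of follicular B cells, was at 14.8 to 20.1 CPM (median 17.7) against 34.1, 26.9 and 26.2 CPM, far below the vehicle's 212 and 196 CPM with every agent (-0.69 ± 0.10). Spib, Cd79b and Dtx1 held in all 9 fits with a library left out, and Fcer2a in all but the fit without SLR10 replicate 3 (0.0565); with all 17 libraries in the model Fcer2a did not pass (0.176). Of 18 T cell markers 0 passed with limma or edgeR and 1 with DESeq2 (3 had an unadjusted limma p under 0.05), with a median of 0.07, and of 14 NK and cytotoxic markers only Klrd1 did (-0.78, held in 1 of 9).

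**Figure D4:**
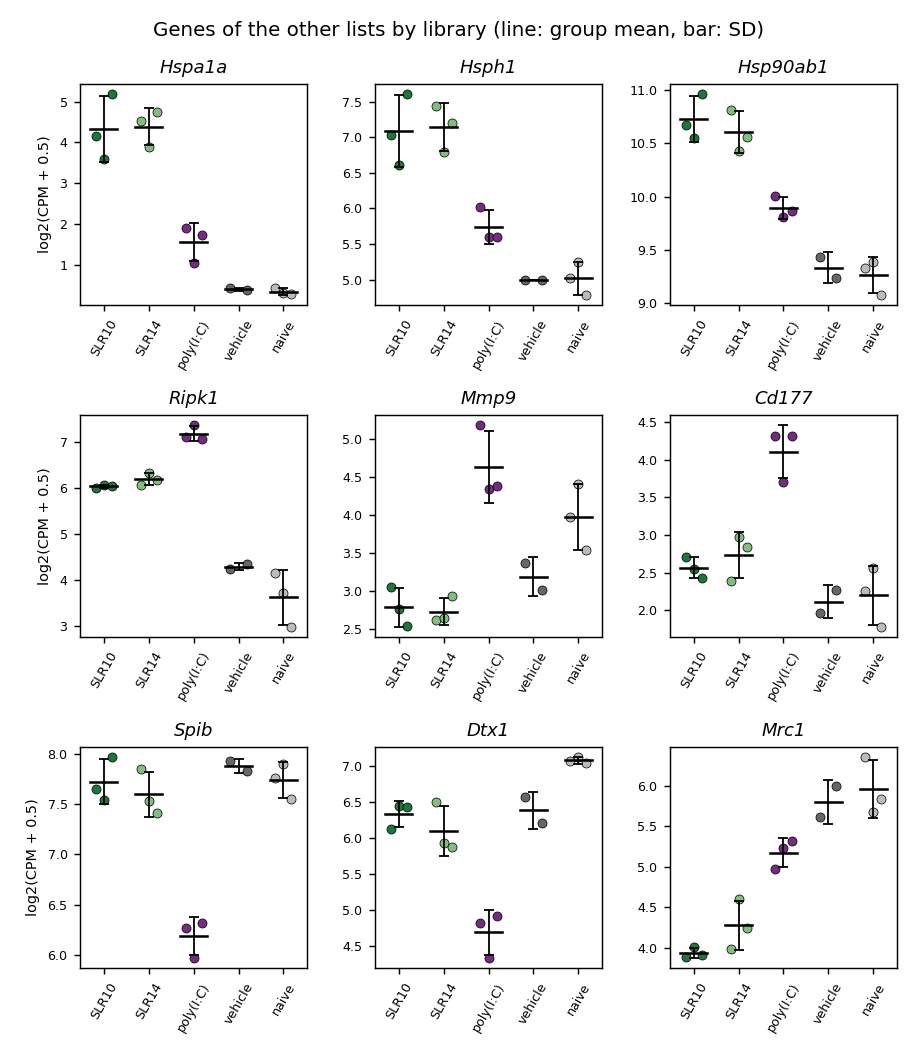
Levels of 9 genes of the other lists as log2(CPM + 0.5) (y axis) in each library of 5 groups (x axis), with 1 point per library, a line at the group mean and a bar for the SD. In the authors' scaling the stem-loop libraries lie near vehicle and poly(I:C) is low for Spib and Dtx1. For Mmp9 poly(I:C) is high, and for Hspa1a, Hsph1 and Hsp90ab1 the order is vehicle, poly(I:C), stem-loop RNAs.

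Several genes outside any list were among the 12 largest rises or falls. Cbfa2t3, a transcriptional corepressor of the ETO family, was at 23.5, 26.9 and 29.0 CPM with SLR10, 30.0, 26.8 and 19.0 CPM with SLR14, 4.71, 5.98 and 6.46 CPM with poly(I:C), and 33.0 and 24.2 CPM with vehicle. In the authors' scaling it too was near vehicle with the stem-loop RNAs and low with poly(I:C) (2.08 ± 0.16, limma adjusted p = 0.00183). Plagl1, a zinc finger transcription factor, had the largest fall among the genes named by size. It was at 3.19, 3.76 and 3.78 CPM with SLR10, 4.44, 3.39 and 3.32 CPM with SLR14, 21.5, 14.6 and 20.0 CPM with poly(I:C), and 0.921 and 1.45 CPM with vehicle (-2.20 ± 0.15, limma adjusted p = 0.00183). Sema4f, a transmembrane semaphorin, was at 2.89 to 4.35 CPM (median 3.59) against 19.8, 11.4 and 16.1 CPM, with vehicle at 3.82 and 2.66 CPM. The stem-loop libraries thus lay near vehicle in that scaling and poly(I:C) far above it (-1.99 ± 0.19). Zfp608, a zinc finger protein, was at 9.58 to 14.0 CPM (median 12.5) against 40.4, 26.4 and 28.7 CPM, with vehicle at 25.0 and 24.1 CPM. Here it was the stem-loop RNAs that lay below vehicle in that scaling (-1.32 ± 0.15). These 4 held in all 9 fits with a library left out.

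The falls of the replication factors Wdhd1 (-1.31) and Dna2 (-1.19), of Agap1 (-1.35), a regulator of Arf GTPases, and of Dmxl2 (-1.16) held in 2, 3, 5 and 2 of the 9 fits with a library left out. Wdhd1 was at 26.2 to 55.4 CPM (median 27.3) against 59.1, 111 and 67.6 CPM, with the highest value of each group in an erythroid-high library, SLR14 replicate 2 and poly(I:C) replicate 2, and the part of those cells in its difference was not tested. The Wdhd1 difference was -1.11 without the 3 erythroid-high libraries, with 1 poly(I:C) library left, and -0.64 between those 3. The vehicle level, in the authors' scaling, put these changes in context for the whole table. Of the 448 genes called higher, vehicle was below both groups in 224 (50%), above both in 125 (27.9%) and between them in 99 (22.1%), and of the 393 called lower it was above both in 176 (44.8%), below both in 115 (29.3%) and between them in 102 (26%). Over all tested genes it was below both groups in 49.2%, above both in 36.8% and between them in 14%, so the share of rises with vehicle below both is near the background. All these shares depend on the scaling, in which vehicle columns have smaller totals.

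The stem-loop RNAs were also compared with each other and with poly(I:C) one at a time. The structural difference is the longer stem of SLR14, and the labels give both the same dose. No gene of 13250 differed between SLR14 and SLR10 by limma (smallest adjusted p = 0.989; 132 genes had an unadjusted p under 0.05), and edgeR called 0 and DESeq2 1. The 95% interval of the difference lay within 2-fold for 87.9% of genes, and differences within those intervals were not detectable here. Ifnb1 differed by 0.00 (-0.56 to 0.57) and Ifna13 by -0.33 (-0.88 to 0.21). A few named genes had intervals to 1 side of 0 without passing the adjusted test: Ifnl2 was lower with SLR14 by -0.98 (-1.50 to -0.46), Ddit4 by -0.67 (-1.02 to -0.31) and Il12b by -1.57 (-2.38 to -0.77). Il12b, a subunit of IL-12, was at 19.2, 20.4 and 22.2 CPM with SLR10, 11.1, 6.88 and 3.66 CPM with SLR14 and 25.9, 15.0 and 24.4 CPM with poly(I:C), so the SLR14 libraries lay below all others.

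Against poly(I:C), 398 genes (3%) passed for SLR10, 240 higher (1.81%) and 158 lower (1.19%), and 164 genes (1.24%) for SLR14, 88 higher (0.664%) and 76 lower (0.574%). Both comparisons share the 3 poly(I:C) libraries, so their likeness is partly built in, and SLR14 includes the erythroid-high replicate 2. Of the 14 interferon genes, 11 were higher and 2 lower with SLR10, and 10 higher and 2 lower with SLR14. Of the 2 lower genes, Ifnl3 was tested only through its poly(I:C) level. Of the 12 chaperones 7 were higher with SLR10 and 2 with SLR14, although the list medians were 0.71 and 0.69. Side by side, Hspa1a differed from poly(I:C) by 2.76 with SLR10 and 2.83 with SLR14, Ifnb1 by 1.87 and 1.87, Sct by 2.00 and 1.91, Mmp9 by -1.84 and -1.90, and Plagl1 by -2.22 and -2.18. The values of all 24 genes named by size had the same sign with both stem-loop RNAs. That was fixed in advance, since only genes whose groups do not overlap were named by size.

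**Figure D5:**
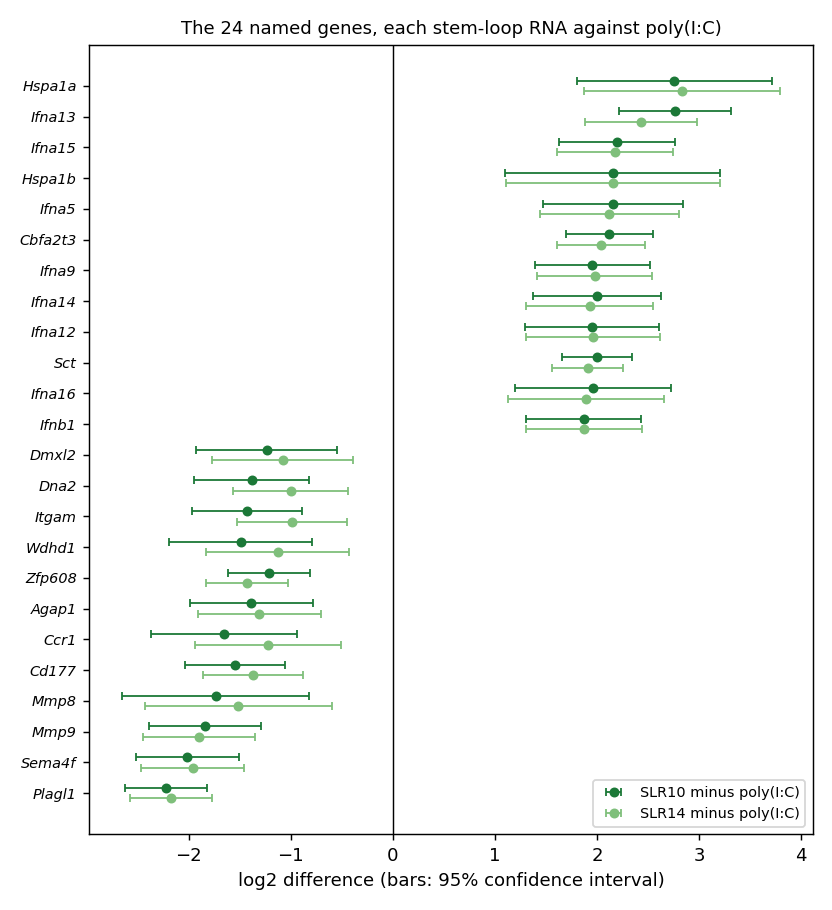
Log2 difference from poly(I:C) (x axis) for SLR10 and for SLR14 in the 12 largest rises and 12 largest falls (y axis), with 95% confidence intervals as bars. Both share the poly(I:C) libraries. Every gene lies on the same side of 0 with both, from 2.76 and 2.83 for Hspa1a to -2.22 and -2.18 for Plagl1. The rule that named these genes, groups that do not overlap, fixed this in advance.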

How the data were processed

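RNA was sequenced from 17 mouse spleen libraries, 9 of which were compared here. Per the labels, libraries are of the stranded mRNA type, with 500 ng of total RNA as input. Per the submitters' processing notes, the tools were HTSeq, edgeR, SAMtools 1.4, TopHat, TopHat2 2.0.6 and FastQC, with builds GRCm38 and mm10. The annotation and the strand setting are not given in the sources used here. The deposited table holds signal values, named CPM by the authors, that are reads per gene scaled by an edgeR library size. All values (100%) are whole multiples of 1 read within 0.01 reads, so the whole counts that the authors scaled could be recovered from the deposited values.

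Of 39184 lines, 5 without a name, 699 named #N/D, 27 with a number as name and 113 extra lines of 87 repeated names were left out (for a repeated name the line with the highest mean was kept), leaving 38340 genes. Lines left out for their name hold 37.2% to 40.6% of the reads of the 9 libraries, and named genes hold 15.8 to 24.9 M reads. The 3-read floor allows for counting error alone.

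Genes at 1 CPM or more in 2 or more of the 9 libraries were fitted as log2(CPM + 0.5) with limma 3.58.1 (R 4.3.3), group means for SLR10, SLR14 and poly(I:C) and a mean-variance trend. The main contrast is the mean of SLR10 and SLR14 minus poly(I:C). Errors beside log2 differences are standard errors. On simulated counts for this contrast (13250 genes), 50% of genes changed 2-fold and 92% of those changed 4-fold were recovered. Of the calls on these simulated counts, 8.39% were false. Whether these rates hold for the measured libraries was not tested. In the measured libraries the leading principal component, which sets the erythroid-high libraries apart, carried 74.4% of the variance. Their calls ran from 116 to 1483 with a library left out. Genes were named by rule: the 12 largest rises and 12 largest falls that passed, averaged 5 CPM or more over the 9 libraries and had groups that do not overlap, 16 response genes, and up to 4 members of each list with the smallest adjusted p. For genes named by size the lack of overlap is thus no result. Other list members named beside those of the rule were chosen after their values were seen. The members, the 32 lists and the rule were chosen with earlier results of these data known. Alternatives were other models, pseudocounts, filters and scalings, a replicate block, an erythroid covariate, edgeR 4.0.16 and DESeq2 1.42.0 on recovered reads, and leaving out each library. Gene positions are from GENCODE vM21 on GRCm38, and 70 of the 91 named genes have a RefSeq promoter entry.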

Additional observations from a re-analysis of the deposited data

Results flagged for a closer look

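Over the 6 stem-loop libraries, 16 response genes and 32 list levels were examined for a library far from the other 5, which chance gives in about 1 in 20 groups. SLR14 replicate 2 was far above the other 5 for Isg15 (2010 CPM), Rsad2 (5589 CPM) and Ifih1 (998.4 CPM) and far below them for Mx1 (1229 CPM) and Tnf (120.9 CPM). The same library was far above the others in the mean log2 level of erythroid markers (8.944), proliferating cell markers (6.409), red pulp macrophage markers (6.006), marginal zone macrophage markers (4.503) and interferon-stimulated genes (9.362). It was far below them for markers of B cells (6.559), T cells (4.324), NK and cytotoxic cells (2.456) and conventional dendritic cells (3.077). It was also low in inducers of interferon gamma (4.553), inflammatory and NF-kB genes (5.929), chemokine genes (5.617), MHC class II genes (7.469) and checkpoint genes (4.605). SLR14 replicate 3 was far above the others in genes linked to interferon gamma (8.691) and far below them in cholesterol genes (3.28).

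The pppNS libraries entered no comparison here. By value, each of the 3 pppNS libraries was above every vehicle and naive library for 15 of the 16 response genes. In Ifna4 a pppNS library was at 0. In Ifna2 pppNS replicate 3, at 0.0711 CPM, was under its 3-read floor of 0.107 CPM, so it cannot be told from 0. In CPM the pppNS means were 0.395 for Ifnb1, 0.1543 for Ifna2, 4.169 for Ifng, 710.3 for Isg15, 577.8 for Ifit1, 1096 for Rsad2, 393.6 for Mx1, 267.5 for Ddx58 and 191.5 for Ifih1. They were 923 for Cxcl10, 61.96 for Ccl2, 10.54 for Il6, 60.73 for Tnf, 15.55 for Il12b and 27.38 for Irg1. Ifnb1 averaged 216 CPM with the stem-loop RNAs and 59.2 CPM with poly(I:C).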

How the results depend on the processing

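The number of genes called depended on the setting. Of the 81 named genes that passed, 29 held in all 9 fits with a library left out, and 31 did not pass with all 17 libraries. None of the 81 changed sign under any alternative run, without the 3 erythroid-high libraries or in those 3 alone. The kept signs were largely fixed by selection. In 817 of the 841 called genes the groups do not overlap, and there leaving libraries out cannot change the sign. Ifng, Isg15, Rsad2, Mx1, Ddx58, Cxcl10 and Irg1, which did not pass, each changed sign under at least 1 alternative. The 841 calls (448 higher, 393 lower; 53.3% higher) became 493 (232 and 261) with all 17 libraries, 429 (239 and 190) with no filter, 541 (373 and 168; 69% higher) with quantile scaling, which shifts the median of all genes by 0.084, and 1830 (901 and 929) with DESeq2. They became 2526 (1016 and 1510) with an erythroid covariate and 2302 (928 and 1374) without the 3 erythroid-high libraries together, which leaves 1 poly(I:C) library. With a library left out they ran from 116 (without SLR10 replicate 3) to 1483 (without SLR14 replicate 2), with 71 to 781 higher and 45 to 702 lower. The 398 calls for SLR10 became 137 with no filter, 217 with quantile scaling, 1586 with the covariate, 1986 with DESeq2 and 2209 without the 3 libraries, and ran from 8 to 868 with a library left out. The 164 for SLR14 became 87, 70, 1783, 807 and 1447 under the same settings and 248 with edgeR, and ran from 3 to 122 with a library left out. SLR14 against SLR10 gave 1 with DESeq2. The cause of these shifts was not tested.

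With the replicate block the calls were 696, and 260 for SLR10 and 89 for SLR14. Whether equal replicate numbers mark pairs is not known. Deviations of equally numbered libraries correlated at -0.535 to 0.815. The widest values are those between SLR14 and poly(I:C), which hold the erythroid-high libraries, so they cannot decide it.

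List medians that changed sign were those of erythroid (1.343) and proliferating cell markers (0.249), inducers of interferon gamma (-0.1736), inflammatory (-0.2177), immediate early (-0.04399) and cell death genes (-0.01789) without the 3 libraries. Among those 3 alone they were red pulp macrophage (0.09144), erythroid (0.02754), proliferating (0.03597), inflammatory (-0.0784) and immediate early (-0.0343). With the covariate they were monocyte markers (-0.07702), inducers (-0.03343), inflammatory (-0.07285) and cell death genes (-0.02797). With a library left out, medians ran from -0.006821 to 0.3315 (plasma cell), -0.02613 to 0.3093 (marginal zone macrophage), -0.03209 to 0.2631 (inducers), -0.06179 to 0.2389 (inflammatory), -0.02109 to 0.2311 (immediate early) and -0.01087 to 0.1833 (cell death), lowest without poly(I:C) replicate 1 for the marginal zone list and without replicate 2 for the other 5.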

Other observations

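Among the lists not described above, plasma cell markers gave 1 higher of 9, Mzb1, a chaperone of antibody assembly that plasmacytoid dendritic cells also express. It was at 34.4 to 42.9 CPM (median 37.4) with the stem-loop RNAs, at 24.1, 19.5 and 23.02 CPM with poly(I:C) and at 66.6 and 47.5 CPM with vehicle (0.77 ± 0.11, limma adjusted p = 0.0126; 0.0605 with all 17 libraries in the model). Endothelial markers gave 1 higher and 1 lower of 16: Madcam1, the adhesion molecule of the marginal sinus (0.51, limma adjusted p = 0.0373), and Sele, E-selectin, which binds neutrophils and other leukocytes (-0.58, limma adjusted p = 0.0202). Sele was at 4.02 to 4.97 CPM (median 4.45) with the stem-loop RNAs, at 7.20, 6.24 and 7.30 CPM with poly(I:C) and at 0.342 and 0.397 CPM with vehicle, so that no groups overlapped. Madcam1 held in 2 and Sele in 5 of the 9 fits with a library left out, and neither passed with all 17 libraries in the model (0.277 and 0.138).

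Conventional dendritic cell markers had 1 higher (Dtx1) and 1 lower (Ccl22) of 16, with a median of 0.01. Immediate early genes had 1 higher of 21, Egr3 (0.87), and glucocorticoid-responsive genes 1 lower of 12, Sgk1 (-0.58). With limma 0 passed of 5 marginal zone macrophage, 12 megakaryocyte, 16 stromal, 11 MHC class II and 16 cholesterol genes, of which 1, 0, 2, 4 and 2 were under 0.05 before adjustment. The corresponding calls were 0, 0, 0, 1 and 0 by edgeR and 1, 0, 0, 2 and 1 by DESeq2.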
